A study of Mus musculus with 4 samples.

Results

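One-way promoter regions are places with PPARγ ChIP peaks that lie at a promoter with a single direction of protein-coding transcription. Whether PPARγ itself contacts the DNA there was not tested. They were chosen by merging the peaks of 2 PPARγ ChIP libraries that overlap by at least 1 bp, keeping merged regions with peaks of both libraries, and taking those with a centre between 1 kb before and 100 bp after a protein-coding transcription start site (TSS), by the curated RefSeq annotation of mm10. A TSS counted as one-way when no other gene had a protein-coding TSS on the opposite strand within 1 kb. The rule gave 3006 of 20233 merged regions, a share of 14.9% (95% Wilson interval 14.4 to 15.4). They belonged to 2804 genes by nearest TSS, and 34 lay in the windows of more than 1 gene. Of 19103 genes with a one-way TSS, 2834 (14.8%) held such a region in at least 1 window. Beyond the presence of a peak in each library, no measured value was used to choose them.

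The chromatin came from alveolar macrophages (AMs) of 9-week-old wild-type C57BL/6J mice, collected by bronchoalveolar lavage and sorted by flow cytometry. It was profiled by HT-ChIPmentation, in which a transposase tags immunoprecipitated DNA while it is on the beads, with a Diagenode antibody against PPARγ (#C15410367). The study used mice of both sexes, and which of them gave these libraries is not given in the sources used here. Libraries 1 and 2 form 1 group of wild-type cells with no treatment, and the study asked with them where PPARγ sits in the AM genome and how this relates to RXR. Nothing in the sources used here says that the libraries came from separate animals, so their agreement measures a spread that may be technical. There is no contrast between conditions and no test over samples. Every interval given is a 95% interval over regions or genes and accounts for counting error alone.

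PPARγ is a nuclear receptor that senses fatty acids and binds DNA together with RXR, usually at a direct repeat of AGGTCA spaced by 1 base, called DR1. In AMs it is known for driving the lipid-handling program that lets these cells clear surfactant, and much of its binding lies in enhancers beside PU.1 and C/EBP sites. Promoters differ from enhancers in sequence: many are rich in CpG dinucleotides and carry sites for general promoter factors such as NFY, NRF1, ETS and SP proteins.

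Because the receptor's own element is the natural first thing to look for, the strongest one-way promoter regions with a DR1 match near the summits of both libraries are shown. The pattern is AGGTCA, any 1 base and AGGTCA again, with up to 2 mismatches and on either strand, and it was found in such a position in 39 of 3006 regions. Each line gives the bases of GRCm38.p6 (mm10) on the gene's strand around the centre of the match, which is in capitals.
Adcy10, chr1:165484878-165484978, plus strand: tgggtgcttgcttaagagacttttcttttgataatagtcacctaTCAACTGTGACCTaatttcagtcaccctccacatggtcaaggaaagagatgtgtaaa
Isca1, chr13:59769867-59769967, minus strand: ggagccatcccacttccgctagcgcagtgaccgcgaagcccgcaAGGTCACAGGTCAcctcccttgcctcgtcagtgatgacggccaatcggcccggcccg
Git2, chr5:114773550-114773650, minus strand: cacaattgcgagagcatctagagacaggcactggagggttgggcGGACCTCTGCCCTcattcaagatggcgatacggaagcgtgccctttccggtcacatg
Baz1b, chr5:135187042-135187142, plus strand: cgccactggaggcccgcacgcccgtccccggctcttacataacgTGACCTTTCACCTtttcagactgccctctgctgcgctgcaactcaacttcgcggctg
Dyrk2, chr10:118869755-118869855, minus strand: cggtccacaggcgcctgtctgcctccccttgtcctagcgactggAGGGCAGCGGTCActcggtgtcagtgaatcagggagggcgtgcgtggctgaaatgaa
Ilrun, chr17:27820916-27821016, minus strand: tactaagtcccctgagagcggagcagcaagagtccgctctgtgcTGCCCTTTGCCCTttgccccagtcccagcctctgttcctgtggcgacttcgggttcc

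The match at Isca1, which encodes an iron-sulfur cluster assembly protein, is the only perfect DR1 within 100 bp of a summit of either library in the whole set. It lies 128 bp upstream of the TSS, 53 bp from the library 1 summit and 60 bp from the library 2 summit, in a region with a fold enrichment over input of 14.2 in library 1 and 8.98 in library 2. The same region carries a perfect ETS site a little further upstream, printed in the next set. Adcy10, which encodes the soluble adenylyl cyclase, had the strongest DR1-bearing region, with folds of 15.1 and 14.3 and the match 7 bp and 15 bp from the summits. Its match and those at Git2 (an ARF GTPase-activating protein), Dyrk2 (a kinase) and Ilrun carried 2 mismatches each, and that at Baz1b (a chromatin remodelling subunit) carried 1.

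For comparison, 1 strong region is shown for each of 8 other elements, written in the same way. PU.1 (GAGGAAGT), ETS (CCGGAAGT), NFY (CCAATNNG), CRE (TGACGTCA), the CLEAR E-box (TCACGTGA, which contains the E-box CACGTG) and C/EBP (TTGCNNAA) were searched without mismatches. NRF1 (GCGCA followed by TGCGC) and ZNF143 (ACTACA and TCCC with any 2 bases between) were searched with up to 1 mismatch. The PU.1 and ETS patterns share GGAAGT but exclude each other by their first letters. Both strands were searched. Within 100 bp of the TSS of all 19103 one-way promoters, the share holding the pattern was 2.30% for PU.1, 4.06% for ETS, 11.6% for NFY, 6.70% for NRF1, 2.08% for CRE, 0.879% for the CLEAR E-box, 3.16% for ZNF143 and 5.28% for C/EBP.
PU.1 at Ctsc, chr7:88277887-88277987, plus strand: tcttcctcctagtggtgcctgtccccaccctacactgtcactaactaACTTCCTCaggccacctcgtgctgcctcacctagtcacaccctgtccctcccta
ETS at Isca1, chr13:59769952-59770052, minus strand: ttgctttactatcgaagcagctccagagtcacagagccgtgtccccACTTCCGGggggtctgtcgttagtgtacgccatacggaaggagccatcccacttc
NFY at Atp5l, chr9:44921200-44921300, minus strand: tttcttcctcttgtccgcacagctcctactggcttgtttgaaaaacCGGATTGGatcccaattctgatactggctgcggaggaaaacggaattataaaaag
NRF1 at Hnrnph1, chr11:50377485-50377585, plus strand: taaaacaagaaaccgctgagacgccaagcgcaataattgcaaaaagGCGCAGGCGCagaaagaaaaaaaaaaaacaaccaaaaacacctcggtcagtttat
CRE at H4c8, chr13:23530927-23531027, plus strand: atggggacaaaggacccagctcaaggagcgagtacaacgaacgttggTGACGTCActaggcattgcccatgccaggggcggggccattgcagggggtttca
CLEAR E-box at Sephs2, chr7:127274166-127274266, minus strand: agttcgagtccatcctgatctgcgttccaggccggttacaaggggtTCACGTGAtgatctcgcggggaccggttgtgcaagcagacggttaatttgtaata
ZNF143 at Fmc1, chr6:38533745-38533845, plus strand: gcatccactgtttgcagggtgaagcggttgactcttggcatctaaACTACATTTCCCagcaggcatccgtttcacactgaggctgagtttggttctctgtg
C/EBP at Gtf3c6, chr10:40258553-40258653, minus strand: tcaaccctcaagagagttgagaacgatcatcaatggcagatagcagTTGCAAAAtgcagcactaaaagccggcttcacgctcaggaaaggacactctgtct

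The regions were of ordinary strength. Their median fold enrichment over input, taken from the strongest peak of each library, was 7.41 (interval 7.11 to 7.41) in library 1 and 5.35 in library 2. Regions more than 3 kb from any TSS, called distant regions here, had medians of 6.52 and 5.35, and the 503 regions at bidirectional promoters had 7.70 and 5.35. One-way promoter regions were therefore somewhat above distant regions in library 1 and level with them in library 2. The folds are coarse, since 20 values account for 65.6% of the regions in library 1 and 77.9% in library 2. Across the 3006 regions the rank correlation between both libraries' folds was 0.54, a description of points that share an annotation window. Their median width was 602 bp (interval 586 to 617) against 635 bp for distant regions, and 38 were wider than 3 kb. Among the 100 best-ranked regions, ranked by the lower of their fold percentiles in both libraries, 13 were one-way promoter regions (13%, 7.76 to 21.0), a share near their 14.9% of all regions. Distant regions, 12426 of the 20233, were 57 of the 100.

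Peaks at one-way promoters were found again in the other library more often than distant peaks. In library 2, 3397 of 3616 peaks or merged peaks placed by the same window overlapped a library 1 peak (93.9%, interval 93.1 to 94.7), against 80.5% (79.9 to 81.0) of distant ones. In library 1, which has 83787 peaks against 28535, 36.2% (35.2 to 37.1) were shared against 24.7% (24.3 to 25.1). The gap in library 2 was widest among weak peaks: in the lowest of 4 equal classes by fold, 84.6% of one-way promoter peaks were shared and 65.0% of distant ones. In the highest class the shares were 99.8% and 97.9%. In library 1 the highest class gave 64.7% (63.2 to 66.2) and 66.1% (65.3 to 67.0), where one-way promoter peaks were not shared more often. Library 1 peaks at one-way promoters also had a higher median fold than distant ones (5.04 against 4.24). Peaks at bidirectional promoters were shared about as often as those at one-way promoters. Their shares were 93.1% (90.7 to 94.9) in library 2 and 34.7% (32.4 to 37.2) in library 1, where their median fold was 5.33.

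The strongest one-way promoter regions stood at an uneven mixture of genes. Gtf3c6, which encodes a subunit of the RNA polymerase III factor TFIIIC, ranked first, with folds of 35.5 in library 1 and 21.8 in library 2 (chr10:40257565-40259628). Alyref2, an mRNA export factor gene, followed with 32.4 and 22.1, and Zfp36, which encodes the mRNA decay factor tristetraprolin, with 32.0 and 20.1. Next came Poldip3 (31.4 and 16.4), Tex14 (31.9 and 16.0), the survival gene Mcl1 (21.6 and 16.8), the ATP synthase subunit gene Atp5l (21.0 and 17.1), the repressor gene Bcl6 (21.0 and 16.5) and Eapp (20.7 and 25.7). The histone gene H4c8 and Polr2a, the gene of the largest RNA polymerase II subunit, tied for the 10th place with 21.0 and 14.6 each. Of these 11 regions, 7 had a small noncoding RNA gene of the RefSeq annotation within 1 kb, among them Rnu3a beside Gtf3c6, Rnu12 beside Poldip3 and tRNA genes beside Zfp36 and H4c8. In the whole set 71 of 3006 did (2.36%), and below rank 500 it was 1.52%. The part of these small genes in the folds was not tested.

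The window of the rule reaches far upstream and little downstream, so that 92.2% of region centres were upstream of the TSS by construction, and the side on which the summits lay is largely set by it. The summit of the strongest peak had a median position of -168 bp (interval -179 to -160) in library 1 and -193 bp (-205 to -181) in library 2. It was upstream in 89.3% and 87.8% of regions. With a window of 1 kb to both sides the medians were -83 bp and -92 bp. Within 250 bp of the TSS on either side lay 59.7% of library 1 summits and 56.1% of library 2 summits. The summits of the libraries were a median of 83 bp apart (79 to 87), and 57.0% were within 100 bp of each other. The region itself spanned the TSS in 2076 cases (69.1%). In wide regions the summit can be far away: the Zfp36 region is 14448 bp wide with summits at -3734 bp and 2322 bp, and the Mcl1 region is 15873 bp wide with summits at -7922 bp and 1510 bp. In all, 112 regions had their library 1 summit and 97 their library 2 summit more than 1 kb from the TSS.

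**Figure D1:**
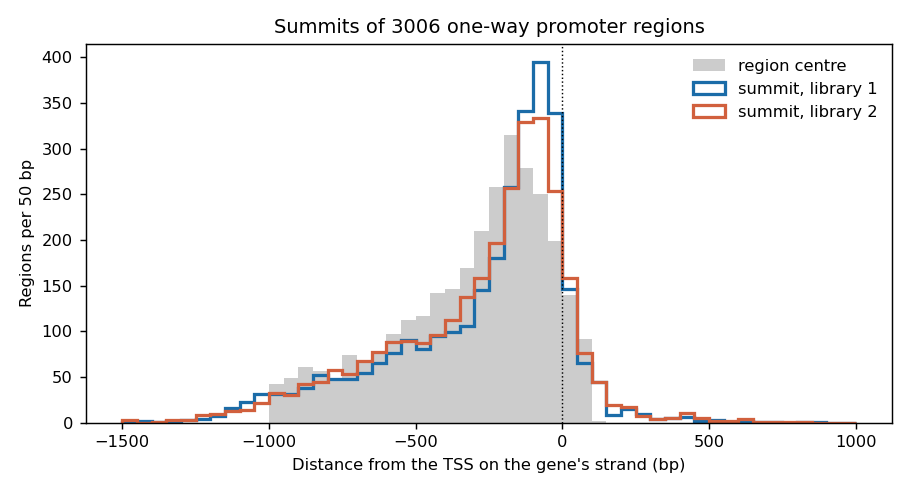
Number of one-way promoter regions per 50 bp (vertical axis) by distance from the TSS in bp on the gene's strand (horizontal axis), for the region centre (grey) and the summit of library 1 (blue) and library 2 (orange). Both summit curves peak just upstream of the TSS, with medians of -168 bp and -193 bp, and the grey centres end at the limits of the window, which leaves out regions centred further downstream and so shapes the fall on that side.

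The edges of the window are not natural borders. There were 88 regions with a centre in the last 100 bp inside the upstream edge and 77 in the first 100 bp outside it, with median folds of 6.22 and 6.52 in library 1. At the downstream edge the numbers were 231 inside and 141 outside, with medians of 7.41 and 7.70. A larger group was left out by the rule although it covered a promoter: 546 regions contained a one-way TSS but had their centre elsewhere, 515 of them further downstream than 100 bp. These were wide and strong, with a median width of 1987 bp and median folds of 10.7 and 7.59. They include many macrophage genes, which are taken up below.

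Promoters with a region were mostly rich in CpG. For 1 TSS per gene, CpG-rich was defined as a GC share of at least 55% and an observed over expected CpG of at least 0.6 within 250 bp of the TSS. Of 9062 CpG-rich one-way promoters 2128 held a region (23.5%, interval 22.6 to 24.4), and of 10041 CpG-poor ones 561 did (5.59%, 5.15 to 6.05). The difference was 17.9 percentage points (Newcombe interval 16.9 to 18.9), or 6.26 points with the window from 200 bp upstream, where 6.61% of all genes held a region. It was 41.9 points without library 2 and 19.4 points without library 1. The share climbed with CpG content in every step, from 2.15% at a ratio up to 0.2 to 30.8% above 1. CpG-poor members were not weaker for it: the 736 regions at CpG-poor TSSs had median folds of 7.41 and 5.63, and the 2270 at CpG-rich ones 7.41 and 5.35. Their library 1 summits were nearer the TSS, at a median of -128 bp (-149 to -106) against -179 bp (-191 to -168).

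**Figure D2:**
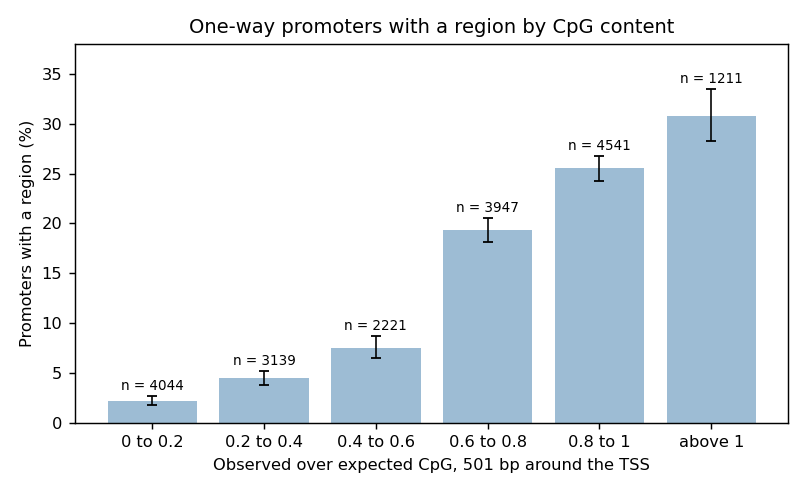
Share of one-way promoters holding a region in percent (vertical axis) by observed over expected CpG within 250 bp of the TSS (horizontal axis). Bars are shares with 95% Wilson intervals and n is the number of promoters; the bars rise from 2.15% to 30.8%.

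Chromosome X stood apart. Of its 857 one-way promoters 28 held a region (3.27%, 2.27 to 4.68), against 14.6% (14.1 to 15.1) on the autosomes. Among CpG-rich promoters the shares were 7.41% (4.74 to 11.4) and 23.9% (23.0 to 24.8), a difference of -16.5 points (-19.3 to -12.4). The 29 members on X had median folds of 6.81 and 5.63. Rpl10, the gene of a large-subunit ribosomal protein, was among them with 12.4 and 9.54.

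Some promoters called one-way by coding genes had a noncoding partner. Of the 3006 regions 234 (7.78%) stood at a TSS with a curated noncoding TSS on the opposite strand within 1 kb. Such promoters held a region more often, in 209 of 805 cases (25.96%, 23.1 to 29.1) against 13.6% (13.1 to 14.1) of the others. Among CpG-rich promoters the difference was 6.52 points (2.96 to 10.3). The folds of these regions were like those of the rest, with medians of 7.70 and 5.35. In a further 12 cases the region also lay in the window of a bidirectional coding TSS.

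The DR1 element was not more frequent at the summits than beside them. A match lay within 100 bp of the library 1 summit in 80 of 3006 regions (2.66%, 2.14 to 3.30) and of the library 2 summit in 87 (2.89%, 2.35 to 3.56). Windows of the same length 1 kb upstream on the gene's strand held it in 3.26% in library 1, a paired difference of -0.60 points (-1.45 to 0.26), and the window 1 kb downstream differed by 0.30 points (-0.49 to 1.09). In library 2 the difference from upstream was -0.07 points (-0.92 to 0.78). The median GC share was 54.2% at library 1 summits and 44.8% upstream, and its part in the DR1 shares was not tested. At distant regions the share was 5.49% (5.10 to 5.90) in library 1, higher than at one-way promoters by an interval of 2.08 to 3.49 points. Of all 19103 one-way promoters 2.0% held the pattern within 100 bp of the TSS. The 39 regions with DR1 at both summits had median folds of 7.41 and 5.07, and those without it at either had 7.41 and 5.35. A match to letters is not a binding site, and a missing one says only that these letters are not in the window.

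Several other elements were more frequent at the summits. NFY, the factor of the CCAAT box, had a match at 16.6% (15.3 to 17.97) of library 1 summits and 15.8% of library 2 summits, against 4.86% upstream and 5.48% at distant regions. The paired difference from upstream was 11.7 points (10.2 to 13.3) in library 1 and 10.9 (9.42 to 12.5) in library 2. ETS, the site of factors such as GABPA, was at 4.76% and 4.03% of summits against 0.20% upstream, a difference of 4.56 points (3.78 to 5.34). The corresponding differences for library 1 were 5.06 points (4.22 to 5.89) for NRF1, 7.88 (6.80 to 8.96) for the KLF/SP box GGGGCGGGG, 4.56 (3.62 to 5.50) for ZNF143, 4.99 (3.86 to 6.12) for the E-box, 2.30 (1.73 to 2.86) for CRE, 1.20 (0.77 to 1.63) for the CLEAR E-box and 1.16 (0.73 to 1.60) for YY1 (AAGATGGCG). Each of these differed in the same direction in library 2. Of all one-way promoters 13.3% held the KLF/SP box within 100 bp of the TSS, 5.38% the E-box and 1.94% YY1. The median GC share was 54.2% at library 1 summits and 44.8% in the upstream windows, and the part of base composition in these differences was not tested.

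PU.1 is the master factor of macrophages. Its pattern lay at 3.73% (3.11 to 4.46) of library 1 summits and 3.46% of library 2 summits, against 1.20% upstream, with paired differences of 2.53 points (1.76 to 3.30) and 1.90 points (1.11 to 2.68). At distant regions it was more frequent still, at 8.25% (7.78 to 8.75). C/EBP had 9.81% at library 1 summits and 8.85% upstream, a difference of 0.96 points (-0.51 to 2.44), but it exceeded the downstream windows by 2.30 points (0.87 to 3.72), and AP-1 (TGANTCA) had 5.82% and 5.39%, a difference of 0.43 points (-0.72 to 1.58), but exceeded the downstream windows by 1.53 points (0.42 to 2.64) in library 1 and by 0.83 points (-0.26 to 1.92) in library 2. RUNX (TGTGGTT) was rarer than upstream, at 3.93% against 5.95% upstream, a difference of -2.03 points (-3.12 to -0.94), while against downstream windows the difference was 0.30 points (-0.66 to 1.26). At distant regions these sites had 17.2%, 11.6% and 9.75%. Of all one-way promoters 3.91% held AP-1 and 3.05% RUNX within 100 bp of the TSS. One-way promoter summits were thus poorer than distant ones in the myeloid and AP-1 sites and richer in the promoter sites. This profile was not particular to them, since the 503 regions at bidirectional promoters shared it. Their library 1 summits had NFY at 17.3%, KLF/SP at 6.96%, ETS at 7.36%, NRF1 at 6.56% and YY1 at 2.78%. For PU.1 the share was 2.39%, for C/EBP 7.75%, for AP-1 6.76%, for RUNX 3.18% and for DR1 2.58%.

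**Figure D3:**
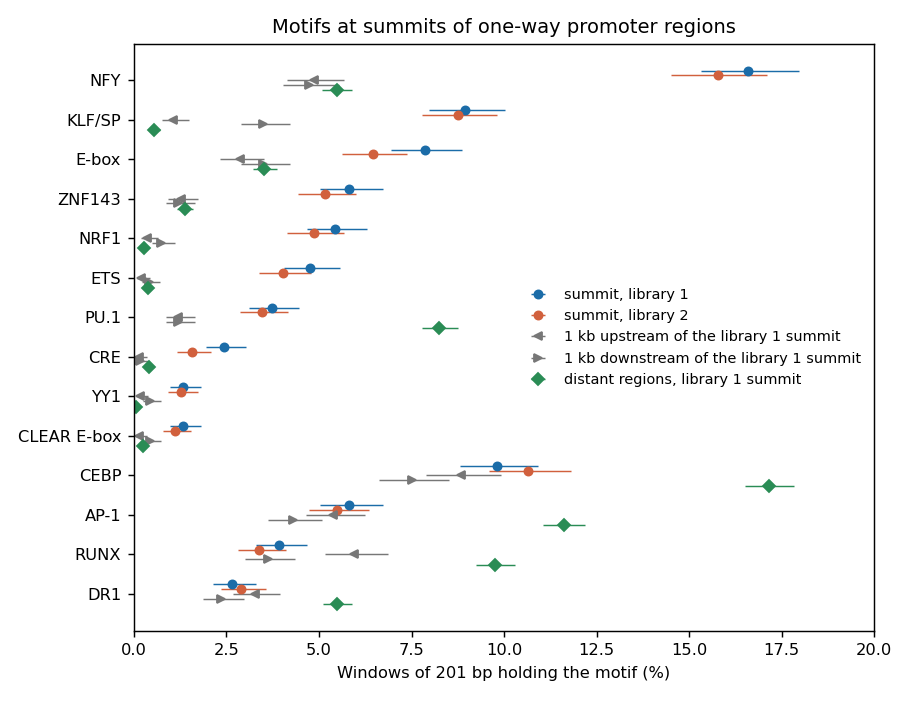
Share of windows reaching 100 bp to either side that hold each of 14 motifs in percent (horizontal axis), at library 1 summits (blue circles), library 2 summits (orange circles), 1 kb upstream and downstream of library 1 summits (grey triangles) and at library 1 summits of distant regions (green diamonds), with 95% Wilson intervals. The upper motifs, from NFY at 16.6% down to the CLEAR E-box, lie right of the grey triangles, while DR1 and AP-1 overlap the upstream triangles.

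The minority of regions at CpG-poor promoters had more of the macrophage sites. Among the 736 CpG-poor regions PU.1 lay at 5.71% of library 1 summits and 6.39% of library 2 summits, against 3.08% and 2.51% of the 2270 CpG-rich ones. The differences were 2.62 points (0.96 to 4.64) and 3.87 points (2.16 to 5.96). C/EBP had 13.7% against 8.55% in library 1, a difference of 5.18 points (2.57 to 8.06), and 15.8% against 8.99% in library 2. DR1 had 3.67% against 2.33% in library 1, with an interval of the difference from -0.003 to 3.04 points, and 4.21% against 2.47% in library 2, an interval from 0.32 to 3.54. ETS ran the opposite way, at 1.90% against 5.68% in library 1. In the windows 1 kb upstream of the summits, DR1 had 3.40% in library 1 and 2.58% in library 2 at CpG-poor regions. At CpG-rich regions these upstream shares of DR1 were 3.22% and 3.08%.

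Seen from the promoters, some sites went with a region also among CpG-rich promoters and some did not. Of 776 one-way promoters with an ETS match within 100 bp of the TSS 27.8% (24.8 to 31.1) held a region, against 13.5% of the others, and among CpG-rich promoters the shares were 31.1% and 22.9%, a difference of 8.16 points (4.56 to 11.97). YY1 gave 34.4% against 23.1% among CpG-rich promoters, a difference of 11.3 points (6.24 to 16.7), and NFY 31.5% against 22.3%, a difference of 9.21 points (6.46 to 12.1). The widest difference of the plotted motifs among CpG-rich promoters was that of RUNX, at 38.9% (30.8 to 47.6) of 126 promoters against 23.3%, or 15.6 points (7.51 to 24.4), although its letters were rarer at the summits than upstream of them. AP-1 gave 7.98 points (1.05 to 15.8) and ZNF143 6.68 points (1.98 to 11.8). Over all promoters RUNX differed by -1.96 points (-4.42 to 0.99) and AP-1 by -3.91 points (-5.96 to -1.47). NRF1 and the KLF/SP box showed a difference over all promoters, of 9.30 and 7.26 points, but among CpG-rich ones the intervals were -1.72 to 3.65 and -2.94 to 1.15. Among CpG-poor promoters a difference remained for both. It was 7.18 points (2.93 to 13.1) for NRF1 and 2.35 points, with a lower limit of 0.069, for the KLF/SP box. Promoters with DR1 held a region in 10.7% of cases (8.01 to 14.2) and those without in 14.1%. Among CpG-rich promoters the DR1 shares were 25% (17.0 to 35.2) and 23.5%. Promoters with PU.1 held a region in 12.5% of cases and those without in 14.1%, a difference of -1.58 points (-4.41 to 1.88). The PU.1 difference was -0.59 points (-7.01 to 7.36) among CpG-rich promoters and 2.61 points (0.008 to 6.23) among CpG-poor ones.

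Genes of basic cell function held one-way promoter regions more often than genes in general. The background is 14.8% of genes with a one-way promoter in both libraries, 34.9% in library 1 alone and 16.5% in library 2 alone. Of CpG-rich one-way promoters 23.5% held a region. A CpG-rich promoter was found in 51.6% of the histone list and 86.4% of the ribosomal list. It was found in 79.5% to 100% of the lists in the next paragraph, against 47.4% of all genes. Of 66 genes of cytosolic ribosomal proteins 41 held a region (62.1%, 50.1 to 72.9), 95.5% in library 1 alone and 65.2% in library 2 alone. Rpl3 led them with folds of 19.3 and 10.7, followed by Rpl22 (15.1 and 10.9), Rpl10 and Rps26 (11.8 and 8.70). Rpl10a, Rpl13a and Rpl17 are listed without one. The ribosomal share was 31.8% with an overlap of 50% of both lengths, against 8.39% of all genes. Of 31 histone genes 22 held a region (71.0%, 53.4 to 83.9), including H4c8, H3c6 (18.4 and 11.8 in the libraries), H2bc6 (16.1 and 10.7) and H3c4 (15.4 and 8.98), and not H1f0, H1f2 or H1f3. Histone genes are clustered and alike in sequence, so reads could be shared among copies there, which leaves their values uncertain.

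Splicing, translation and energy genes followed. Of 44 splicing factor genes 22 (50%) held a region, with Hnrnpc at 18.1 and 11.2, Hnrnpab at 15.1 and 8.98, Hnrnpa3 at 12.7 and 10.1 and Hnrnph1 at 13.6 and 7.87. Hnrnpl, Hnrnpm and Hnrnpu had none. For translation factors it was 17 of 35 genes (48.6%), led by Eif4a2 (15.4 and 9.54), an RNA helicase gene of cap-dependent initiation. Nuclear genes of oxidative phosphorylation gave 20 of 49 (40.8%), led by Atp5l and by Cycs (11.8 and 7.31), the cytochrome c gene, or 14.3% with the window from 200 bp upstream, against 6.61% of all genes. The proteasome gave 13 of 33 (39.4%), led by Psmd3 (15.4 and 11.7). The proliferation list gave 11 of 39 (28.2%), led by Bub1b (10.96 and 6.75) and the replication licensing gene Cdt1 (9.18 and 6.24). The interval of the proliferation share, 16.5 to 43.8, holds the 23.5% of CpG-rich promoters. In the last 4 lists the share was 80.0% to 93.9% in library 1 alone and 30.8% to 48.6% in library 2 alone.

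Genes of the cytoskeleton, of immune signalling and of the lysosome were marked too. Of 48 actin cytoskeleton genes 27 held a region (56.3%), among them Cdc42 (10.96 and 7.87), Wipf1, Cap1 and Lsp1. Of 35 genes of the NF-kB pathway 18 did (51.4%), with Tnfaip3, the gene of the inhibitor A20, at 16.6 and 15.7 and Nfkb2 at 13.3 and 11.2. The antioxidant and iron list gave 19 of 38 (50%), including Slc11a1 (14.2 and 9.82), an iron and manganese exporter of phagosomes, and Prdx6 (15.1 and 8.70), a peroxiredoxin with phospholipase activity on surfactant lipid. The lysosome and V-ATPase list gave 20 of 45 (44.4%), led by Cd68 (21.9 and 13.7) and Ctsc (19.0 and 12.6), the gene of cathepsin C, whose PU.1 site is printed above. Immediate-early and AP-1 genes gave 18 of 52 (34.6%, 23.2 to 48.2). The apoptosis list gave 10 of 30 (33.3%, 19.2 to 51.2), where Casp8 (14.8 and 8.70) came after Mcl1. The intervals of both hold the 23.5% of CpG-rich promoters. Genes with a CpG-rich promoter made up 66.7% to 84.6% of the lists in this paragraph.

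Lipid genes were among the marked groups but not at their head. Of 55 PPAR target and lipid metabolism genes 23 held a region (41.8%, 29.7 to 54.97). Ech1, an enzyme of fatty acid oxidation, had the strongest with 14.5 in library 1 and 12.9 in library 2. The lipid droplet gene Cidec had 13.9 and 10.7, and lipoprotein lipase, Lpl, had 11.3 and 9.26 with its summits 40 bp and 143 bp upstream of the TSS. Dgat1, which makes triglyceride, had 12.1 and 7.87. Fabp4 (6.52 and 4.52) and Angptl4 (4.74 and 6.19), textbook PPAR targets, also held regions, while Pdk4 held none. The list of cholesterol handling is CpG-rich in 87.9%. Of its 33 genes 11 held a region (33.3%, 19.8 to 50.4), an interval that holds the 23.5% of CpG-rich promoters. Among these 11 were Osbp (13.03 and 6.75), Fdps (8.0 and 5.07), Insig1 (8.0 and 5.07) and Mvd (13.03 and 4.79). Abca1 and Abcg1, the exporters of cholesterol, were not among them. The PPAR and lipid share fell to 14.5% when the window began 200 bp upstream, against 6.61% of all genes, and to 21.8% when both folds had to be at least 5, against 9.32%.

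Genes that define AMs had a lower share than ribosomal genes when regions were placed by their centre and not when the region had only to cover the TSS. Of 49 AM signature genes 16 held a region (32.7%, 21.2 to 46.6), in library 1 alone 63.3% and in library 2 alone 49.0%. After Cidec came the beta-glucan receptor gene Clec7a (13.4 and 13.4), Ltc4s (21.3 and 9.05), which makes leukotriene C4, and the transferrin gene Trf (16.3 and 8.15). Siglecf, a surface marker of AMs, had 7.11 and 5.43 and the carbonic anhydrase gene Car4 5.33 and 4.52. Ctsk, the gene of cathepsin K, had 10.96 and 8.70. Only 28.6% of these genes have a CpG-rich promoter, against 86.4% of ribosomal genes and 47.4% of all. The 23 neuronal genes are CpG-rich in 56.5%, and 0 of them held a region, with an upper Wilson limit of 14.3%. The AM share depended on the rule of placing: it was 16.3% when peaks had to overlap by 50% of both lengths and 69.4% when the region had only to cover the TSS, while all genes had 8.39% and 13.5% under those rules. Ribosomal genes had 31.8% and 68.2%, so their lead over AM genes was not kept under the latter rule.

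Macrophage transcription factor genes gave 26 of 53 (49.1%), or 24.5% with the window from 200 bp upstream and 75.5% with one reaching 1 kb downstream, where all genes had 6.61% and 18.5%. Cebpa had 18.7 and 9.82, Klf4 13.9 and 8.70, Klf7 13.03 and 8.42 and Klf2 16.9 and 7.91. Spi1, the gene of PU.1, had 12.1 and 7.59 in a region centred 920 bp upstream, and Runx1 had 12.4 and 6.12. Bhlhe41, a repressor gene of the basic helix-loop-helix family, had 9.18 and 8.98, and Cebpb had 7.19 and 10.1. The interval of the transcription factor share was 36.1 to 62.1, and 75.5% of these genes have a CpG-rich promoter. Receptors of niche signals gave 10 of 34 (29.4%, 16.8 to 46.2), and 64.7% of them have a CpG-rich promoter. This interval holds the 23.5% of CpG-rich promoters that held a region. Among the receptors Ifngr1 (11.6 and 8.42) led, and the chain of the GM-CSF receptor encoded by Csf2rb had 8.29 and 7.31. Tgfbr1 (5.63 and 3.96), Tgfbr2 (5.92 and 5.35) and Notch2 (5.33 and 5.63) also held regions, all of them below the median in at least 1 library.

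Lists of inducible immune genes and of other cell types were near or under the 14.8% of all genes. Their CpG-rich share ran from 0% (granulocytes and liver) to 56.5% (neurons). It was 5.71% for cytokines and chemokines and 13.3% for other macrophages and monocytes. The intervals of these lists, 8.10 to 32.7 and 7.34 to 33.6, lie above the 5.59% of CpG-poor promoters that held a region. Inflammatory cytokines and chemokines gave 6 of 35 (17.1%), with Cxcl2 at 10.6 and 10.9, and interferon-stimulated genes 3 of 35 (8.57%), namely Gbp2, Isg15 and Irf9, all with folds under 6. In library 1 alone the interferon list reached 51.4%, and in library 2 alone 14.3%. Markers of other macrophages and monocytes gave 5 of 30 (16.7%), and the leading 2, Cd68 and Nr4a1, are also used by AMs. Lung epithelium gave 3 of 25, granulocytes 2 of 21 and adipocytes 2 of 17. These included Scgb1a1 (9.77 and 4.79), the club cell secretory protein gene, S100a8 (8.59 and 5.91) and, from the adipocyte list, Cebpa and Fabp4, which AMs also use. Lymphocytes, endothelium, neurons and liver gave 0 of 25, 18, 23 and 25 genes, and in library 1 alone 4.0% to 8.70%. Whether cells of another type in the sort contributed was not tested.

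**Figure D4:**
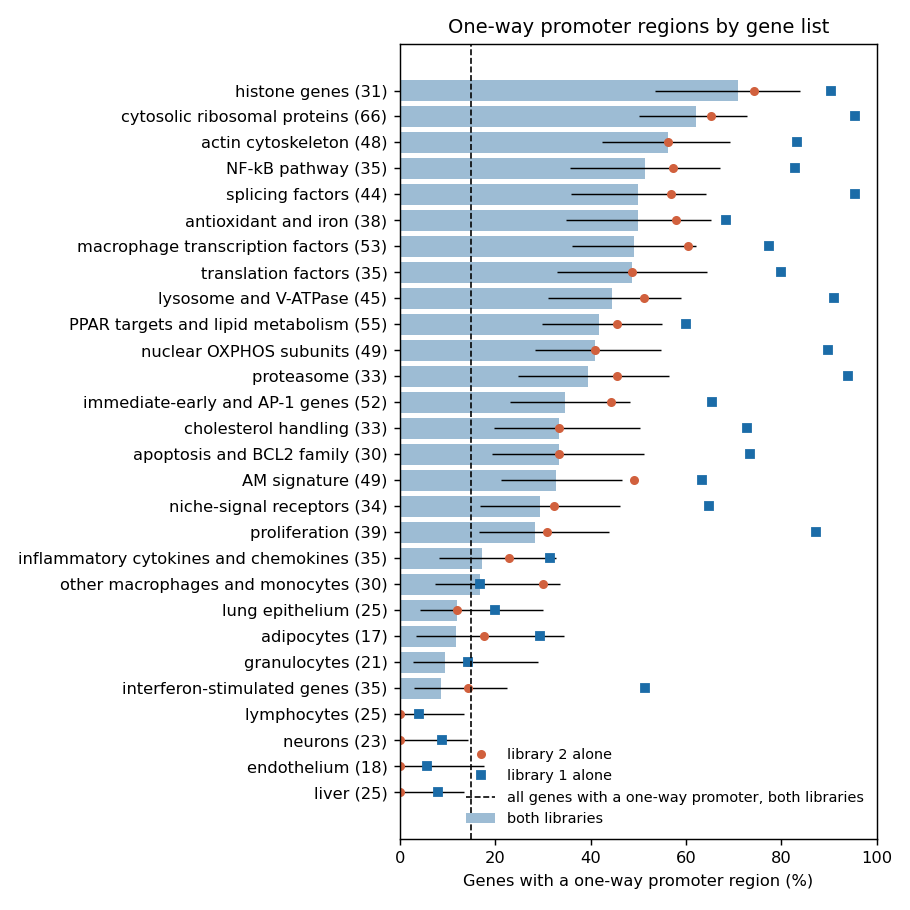
Share of each list's genes with a one-way promoter that hold a region, in percent (horizontal axis), for 28 lists with the number of genes in brackets. Bars show regions of both libraries with 95% Wilson intervals, squares library 1 alone, circles library 2 alone and the dashed line the 14.8% of all such genes; histone and ribosomal protein genes are at the top and lymphocyte, neuron, endothelium and liver markers at 0.

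Promoter regions and distant regions divided the lists differently. Each distant region was given to the gene with the nearest coding TSS. The shares can therefore depend on how far a gene lies from its neighbours, which was not taken into account. Of the 2834 genes with a one-way promoter region 39.8% (38.1 to 41.7) were nearest to at least 1 distant region, against 15.3% (14.8 to 15.9) of the 16269 others, a difference of 24.5 points (22.7 to 26.4). Among AM signature genes 48 of 49 (98.0%) had a distant region, with a median of 4 per gene, where 16 had a promoter region. Among ribosomal protein genes it was the reverse, with 9 of 66 (13.6%) against 41. Oxidative phosphorylation, proteasome and translation genes were like the ribosomal ones, at 8.16%, 9.09% and 8.57% with a distant region, and histone genes had 19.4%. Macrophage transcription factors (77.4%), actin genes (68.8%) and immediate-early genes (84.6%) had both. Over all genes with a one-way promoter 18.9% had a distant region.

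**Figure D5:**
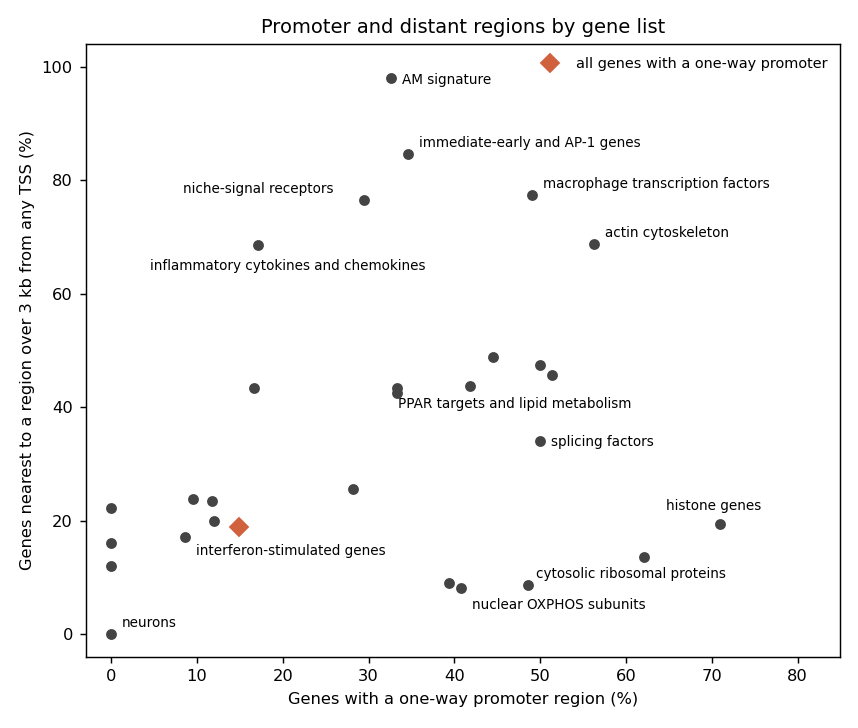
Each point is 1 of 28 gene lists, placed by the share of its genes that hold a one-way promoter region (horizontal axis, percent) and the share nearest to a region more than 3 kb from any TSS (vertical axis, percent), with the orange diamond for all genes with a one-way promoter (14.8% and 18.9%). AM signature genes lie at 32.7% and 98.0%, ribosomal protein genes at 62.1% and 13.6%.

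The placing of the centre hides part of the AM picture. When a gene counts if its one-way TSS lies inside a region, wherever the centre, the AM signature rises from 16 to 34 of 49 genes, while ribosomal protein genes go from 41 to 45 of 66 and all genes from 2834 to 2582 of 19103. Pparg itself is such a case: a region of 4948 bp covers a TSS of Pparg with its centre 780 bp downstream and folds of 15.4 and 10.7. The lipid droplet coat gene Plin2 has a region of 10067 bp over its TSS (18.1 and 15.1), and the fatty acid transporter gene Cd36 one of 3364 bp (16.6 and 14.3). Klf6 (24.97 and 15.4), Chil3 (20.7 and 14.0), Bhlhe40 (16.3 and 11.8), Maff (15.7 and 14.3), Abcg1 (13.9 and 10.1), Csf2ra (13.03 and 11.2), Itgax (10.7 and 7.31), Ucp3 (9.18 and 5.91) and Abca1 (8.0 and 5.91) were likewise covered without being members. Rxra, Marco, Fabp5, Pdk4, Cdh1 and Krt79 had neither, though each was nearest to between 2 and 8 distant regions. Rxrb has only bidirectional TSSs, and it had 1 region but 0 distant ones.

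Most genes held 1 region. A single one was found in 2637 genes, 188 had 2 and 9 had 3. Those with 3 include Atl3, Hnrnpf, Ifitm10, Kctd6, Plec and Rara, the last being the gene of the retinoic acid receptor alpha, another partner of RXR. The 3 regions at Rara had folds of 10.96 and 10.4, 11.6 and 7.31, and 7.70 and 6.19. Of 1754 genes with one-way promoters more than 1 kb apart, 357 (20.4%) held a region at any of them, against 14.8% of all genes. Each such gene has more than 1 window in which a region can fall. Of the 357 genes, 299 held a region at exactly 1 promoter and 58 at several.

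Within the lists, the promoter sites had their own distribution, given here as counts at both libraries' summits without a test. NFY matched at the summits of 7 of 11 regions in the cholesterol list in library 1 and 6 in library 2, among them Insig1, Lipa, Mvd, Srebf2 and Stard4, and at 12 and 9 of 23 histone regions. Over all one-way promoter regions the NFY share was 16.6% and 15.8%. ZNF143 matched at 8 and 6 of 43 ribosomal protein regions, including Rpl23a, Rpl6 and Rps3, against 5.82% and 5.16% over all. NRF1 matched at 7 of 24 splicing factor regions in library 1 (29.2%) but at 3 in library 2 (12.5%), against 5.42% and 4.86% over all. Regions with NFY at both summits had median folds of 8.29 (8.0 to 8.89) and 5.63 (5.35 to 5.91) in 353 regions. Those with it at neither had 7.11 (7.11 to 7.41) and 5.35. Medians were similar for the 34 regions with CRE (8.89 and 5.54), 25 with the CLEAR E-box (8.89 and 5.63) and 63 with PU.1 (8.16 and 5.81) at both summits. For these few regions the library 1 intervals were 7.11 to 10.4, 7.11 to 9.48 and 7.20 to 9.18. Each holds the 7.41 of regions with the site at neither summit. Medians were lower for ETS (7.70 and 5.35) and NRF1 (7.11 and 5.35).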

How the data were processed

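PPARγ HT-ChIPmentation peaks of 2 libraries were analysed; the 2 input libraries served the authors as controls and are not analysed here. Per the labels and the study's methods, the authors used bcl2fastq 2.20.0.422, cutadapt, Bowtie2, SAMtools and MACS3 with mm10 and called peaks per library. The authors' deposited lists give positions with a fold enrichment (summit ratio, ChIP to input), −log10 values for p and for q, and a score. They hold no counts, so depth was not read from them. The study supplies quality data of its HT-ChIPmentation sequencing separately, and these were not used here.

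Regions, classes and shares were computed with Python 3.11.15, pandas 2.3.3 and pysam 0.24.0 on GRCm38.p6; the largest chromosome 1 peak end (195241800) lies within its 195471971 bp. Distant regions are more than 3 kb from any curated TSS. A gene is represented by its RefSeq Select TSS, or the most upstream. Motifs (29) were searched on both strands. Intervals are Wilson, Newcombe or order-statistic intervals, and paired differences have normal intervals on discordant windows; none is adjusted for the number of motifs. The 28 lists held 1147 entries, of which 1144 matched, 36 under another symbol, and 37 genes are in several lists. Functions were tested on simulated data. Sequences and TSSs come from RefSeq. Named genes are the 10 best-ranked regions, up to 4 best members and 3 alphabetically first non-members per list, 34 AM and PPARγ genes named whether or not they are members, genes with most regions, and the best region per printed motif. The regions, lists and rules were chosen with earlier results of these data known.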

Additional observations from a re-analysis of the deposited data

How the results depend on the processing

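No paired analysis was possible because only the ChIP libraries have values here. A count was taken as kept within 1.5 times and any other value within 1 SD between the libraries. This rule was settled after results under other rules had been seen: of 338 values, 118 moved by the SD, 129 by the 95% interval and 90 by both. No difference with an interval off 0 changed sign. The CpG difference was kept because its SD is wide (15.9 points), and it ranged from 6.26 to 20.7 points on both libraries.

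With library 2 or 1 alone, there were 3616 and 9081 regions in 16.5% and 34.9% of genes, with a median fold of 5.35 and 5.04, a width of 300 and 253 bp and a summit at -215.5 and -215 bp. The CpG difference was 19.4 and 41.9 points and the distant-region difference 27.6 and 29.4 points. List shares were 49.0% and 63.3% (AM signature), 60.4% and 77.4% (macrophage transcription factors), 45.5% and 60% (PPAR and lipid), 40.8% and 89.8% (oxidative phosphorylation), 65.2% and 95.5% (ribosomal proteins) and 0 and 8.70% (neurons). Summit shares were 3.87% and 4.56% for ETS, 14.7% and 12.8% for NFY and 3.13% and 2.87% for PU.1, and the differences from upstream 3.54 and 4.38, 10.2 and 8.24, and 1.58 and 1.67 points.

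Values that moved on both libraries follow, with summit shares before differences from upstream. A fold of at least 5 gave 1822 regions, 755 bp, 21.8% of PPAR and lipid genes, NFY at 18.6% (13.9 points), PU.1 at 4.34% (3.02 points) and 21.8 points for distant regions. Shortening library 1 to the length of library 2 gave 656.5 bp, 29.1% of PPAR and lipid genes, 2.73 points for PU.1 and 22.05 points for distant regions. Overlap of 50% gave 1666 regions, 567.5 bp, 16.3% of the AM signature, 25.5% of PPAR and lipid genes, 31.8% of ribosomal proteins, DR1 at 3.30% (0.060 points), NFY at 18.3% (13.2 points), PU.1 at 4.14% (3.06 points) and 21.2 points for distant regions. Summits within 100 bp gave 1820 regions, 538 bp, -154.5 bp in library 2, 18.4% of the AM signature, 27.3% of PPAR and lipid genes, 35.8% of macrophage transcription factors, NFY at 18.7% (13.9 points), PU.1 at 4.01% and 19.1 points for distant regions.

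A window from 200 bp upstream gave 1278 regions, 471 bp, summits at -72 and -78 bp, 18.4% of the AM signature, 14.5% of PPAR and lipid genes, 24.5% of macrophage transcription factors, DR1 at 2.27%, ETS at 6.65% (6.34 points), NFY at 20.4% (15.8 points), PU.1 at 4.23% (3.52 points) and 20.2 points for distant regions. A window to 1 kb downstream gave summits at -83 and -92 bp, 59.2%, 54.5% and 75.5% of these lists, -0.14 points for DR1, ETS at 3.83% (3.23 points), NFY at 13.7% (8.25 points), PU.1 at 4.30% (2.81 points) and 29.0 points. Regions over the TSS gave 780 bp, -80 and -87 bp, 69.4% of the AM signature, 64.2% of macrophage transcription factors, ETS at 5.39%, PU.1 at 4.56% (3.45 points) and 29.8 points. Placing by the library 1 summit gave 46.9% of the AM signature, 2.66 points for PU.1 and 26.4 points for distant regions.

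Motif windows of 50 bp gave DR1 at 1.26%, ETS at 2.83% (2.79 points), NFY at 11.4% (9.05 points) and PU.1 at 2.30% (1.66 points). Windows of 200 bp gave DR1 at 5.02% (-1.33 points), ETS at 7.42% (6.82 points), NFY at 22.8% (13.2 points) and PU.1 at 5.59% (3.06 points). Library 2 summits gave -0.067 points for DR1, ETS at 4.03% (3.69 points) and PU.1 at 3.46% (1.90 points). PU.1 moved to 2.73 points with a stricter q in both libraries and to 2.46 points with no opposite TSS within 500 bp. The cause of these shifts was not tested. Depth was not used, so weak regions were not weighed by it.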
